A study of Mus musculus with 4 samples.

Results

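The genes described here are the mouse Wnt ligands, the Frizzled receptors and a set of co-receptors, secreted modulators and pathway genes, measured in the developing pontine nucleus. They were chosen by symbol, with earlier results of these data known. The rule took every probe set whose only gene symbol was a Wnt or a Frizzled (Fzd). It also took those of Lrp5, Lrp6, Ryk, Ror1, Ror2, Sfrp1, Sfrp2, Dkk1, Dkk2, Dkk3, Wif1, Axin2 and Lef1. This gave 42 of 19938 named genes, covered by 43 probe sets, with 19 Wnt ligands, 10 Frizzled receptors, 5 other receptors, 6 secreted modulators, and Axin2 with Lef1. Only Wnt4 had 2 probe sets, and the one with the higher mean over the 4 arrays was used. The tissue came from mice of the ICR strain at embryonic day 17.5 (E17.5) or on day 1, 5 or 14 after birth (P1, P5, P14), with no treatment or genetic change given in the labels. Each age was a single pool, of 27, 16, 13 and 12 mice in that order, on 1 Affymetrix array. No age had a replicate, so no test was run and every difference is between 2 arrays.

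Wnt proteins are secreted, lipid-modified signals. When a Wnt binds a Frizzled receptor together with Lrp5 or Lrp6, beta-catenin is spared from destruction, enters the nucleus and acts with LEF and TCF factors on target genes such as Axin2. Other Wnt signals pass through Ror or Ryk receptors, or through the planar polarity proteins, and steer cells and axons. The pontine nucleus is the main source of cortical input to the cerebellum, and its mossy fibre axons are known to remodel in response to Wnt7a released by cerebellar granule cells.

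The values are log2 signals, on which 1 unit is a 2-fold difference; levels were compared between arrays for the same probe set and not between genes. The median of all probe sets with 1 symbol, 8.41, serves as a marker of low signal, since background was not measured. By overall likeness the 4 arrays were not in the order of the ages given for them, so 2 of them are called the P5-labelled and the P14-labelled array throughout. Over the 19938 genes, Pearson's r with E17.5 was 0.991 (P1), 0.946 (P5-labelled) and 0.978 (P14-labelled); genes within an array are not independent replicates. The median level of 11 myelin markers was 7.36 at E17.5, 8.15 at P1, 12.44 on the P5-labelled array and 9.31 on the P14-labelled array, and that of 10 markers of immature neurons was 12.72, 12.72, 9.49 and 12.11. Of 11 markers of pontine neurons, 7 lay above 8.41 on all 4 arrays, among them Barhl1, Pax6 and Zic1; Atoh1, of the rhombic lip, and Lhx9 lay below it on every array. In 9 of the 11 the P5-labelled array was the lowest (81.8%, against 40.8% of all genes), while Slc17a7, a vesicular glutamate transporter of maturing neurons, read 8.16, 9.38, 12.90 and 11.36, 11.5-fold above P1 on the P5-labelled array. All 6 markers of choroid plexus and ependyma lay under 8.41 on every array (5.89 to 7.78). In dissected tissue, fewer cells of a type and less RNA per cell cannot be told apart. The comparison of P1 with E17.5 uses neither of the P5- and P14-labelled arrays.

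Over the 4 arrays the members varied about as much as named genes in general. Of the 42 members, 4 differed by at least 2-fold between any pair of arrays: the ligand Wnt3, the receptor Fzd10 and the modulators Dkk2 and Dkk3. That is 9.52% of the members, against 12.2% of all named genes. The median range over the 4 arrays was 0.40 for the members and 0.42 for all named genes. In 25 of the 42 the range was under 0.5 (59.5%, against 59.6% of all genes). Of the 42 members, 22 stayed under 8.41 on all 4 arrays (52.4%, against 45.3% of all genes), 20 reached it on at least 1 array (47.6% against 54.7%) and 9 lay at or above it on all 4 (21.4% against 44.5%). For a member with a value under 8.41, the size of a difference is inexact.

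**Figure D1:**
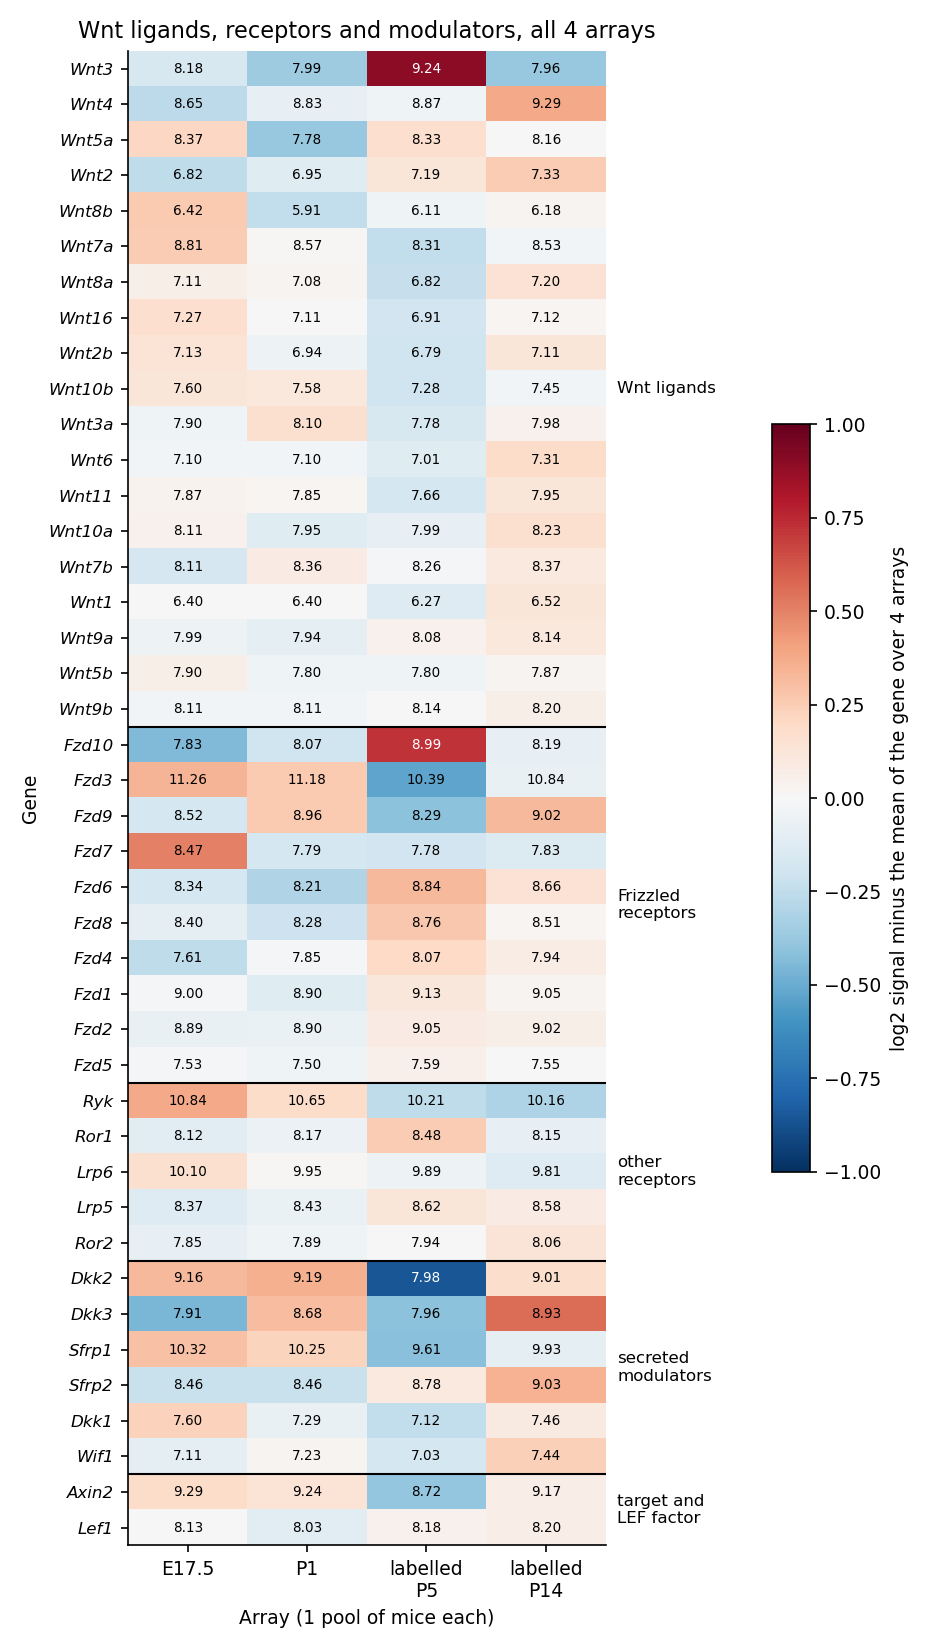
Each row is a gene and each column an array; the printed value is its log2 signal and the colour is that signal minus the mean of the gene over the 4 arrays. The strongest colours are those of Wnt3 (9.24) and Fzd10 (8.99) above their means and Dkk2 (7.98) below its mean, all on the P5-labelled array.

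The stretches of DNA before the start sites of Wnt3, Dkk2 and Fzd10 are shown because these are 3 of the 4 members that reached 2-fold, and that of Wnt9b because it lies next to Wnt3 in the order of protein-coding genes and had a range of 0.09. Each is the 250 bases before a start site, from RefSeq, build GRCm38.p6, written 5′ to 3′ on the strand of the gene. Capitals mark CTTTGA or CTTTGT on either strand, letters at the core of sites that TCF and LEF factors bind, or TATAAA on the strand of the gene, the TATA box.
Wnt3, chr11:103773925-103774174, plus strand: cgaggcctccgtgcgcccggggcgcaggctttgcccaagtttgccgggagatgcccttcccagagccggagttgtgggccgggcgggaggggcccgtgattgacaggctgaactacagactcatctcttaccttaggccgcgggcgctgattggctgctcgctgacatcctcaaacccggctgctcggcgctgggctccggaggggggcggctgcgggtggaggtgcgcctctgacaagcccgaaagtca
Wnt9b, chr11:103749822-103750071, minus strand: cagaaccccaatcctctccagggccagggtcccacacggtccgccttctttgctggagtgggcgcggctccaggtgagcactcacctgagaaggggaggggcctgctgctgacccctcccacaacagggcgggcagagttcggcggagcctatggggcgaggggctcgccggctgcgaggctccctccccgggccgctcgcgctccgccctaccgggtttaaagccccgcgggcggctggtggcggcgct
Dkk2, chr3:132085042-132085291, plus strand: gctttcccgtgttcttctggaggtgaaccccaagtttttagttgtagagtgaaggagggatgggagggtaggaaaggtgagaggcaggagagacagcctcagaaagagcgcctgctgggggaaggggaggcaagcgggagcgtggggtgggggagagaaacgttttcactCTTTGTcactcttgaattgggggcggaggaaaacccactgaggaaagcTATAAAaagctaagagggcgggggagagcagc
Fzd10, chr5:128600856-128601105, plus strand: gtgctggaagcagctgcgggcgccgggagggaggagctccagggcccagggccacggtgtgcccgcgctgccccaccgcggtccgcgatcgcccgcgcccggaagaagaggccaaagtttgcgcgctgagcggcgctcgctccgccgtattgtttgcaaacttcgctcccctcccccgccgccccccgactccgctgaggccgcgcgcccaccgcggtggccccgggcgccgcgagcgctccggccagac
The windows of Wnt3, Wnt9b and Fzd10 held none of these letters. That of Dkk2 held CTTTGT, starting 80 bases before the start site, and TATAAA, starting 32 bases before it. The table gave 36 windows for 30 of the 42 members. CTTTGA or CTTTGT was in 27.8% of these 36 windows and in 27.6% of all 32851 windows, and TATAAA was in 11.1% and 7.59%. The member windows were rich in G and C, with a median of 66.6% against 52.4% in all windows. Guanine and cytosine made up 68.0% of the Wnt3 window, 72.0% of that of Wnt9b, 76.4% of that of Fzd10 and 55.6% of that of Dkk2. A match is a run of letters and no evidence of binding.

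Around birth no member differed by 2-fold. Between E17.5 and P1, 0 of 42 members were at least 2-fold higher and 0 were at least 2-fold lower, against 0.502% and 0.166% of all named genes. With shares this small, a count of 0 in 42 does not set the members apart. The median difference was −0.03 over the members and −0.03 over all genes. With no replicate, the one error the files give is how far probe sets of 1 gene disagree, an SD of 0.12 for this difference over 645 genes with several probe sets above 8.41 on at least 1 array; it holds probe noise and not the spread between pools. In 22 members the difference was larger than that SD (52.4%, against 57.6% of all genes), and in 20 it was not.

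Among the ligands, 3 of 19 reached 8.41 on any array (15.8%, against 54.7% of all genes). Wnt4, best known for its part in kidney and gonad development, read 8.65 at E17.5, 8.83 at P1, 8.87 on the P5-labelled array and 9.29 on the P14-labelled array. It was the only ligand at or above 8.41 on all 4 arrays. Its second probe set read 7.91, 8.09, 8.27 and 8.69, so both probe sets were lowest at E17.5 and highest on the P14-labelled array, by 0.64 and 0.78.

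Wnt3 was higher on 1 array than on the other 3. Wnt3, a ligand of the beta-catenin route that also acts on growing axons, read 8.18 at E17.5, 7.99 at P1, 9.24 on the P5-labelled array and 7.96 on the P14-labelled array. The P5-labelled array was 1.25 above P1 and the other 3 arrays lay within 0.22 of each other. The P14-labelled array lay 1.28 under the P5-labelled array, the largest difference of any member in the comparisons made here. Wnt9b, the neighbour of Wnt3 on chromosome 11, read 8.11, 8.11, 8.14 and 8.20, a range of 0.09. The levels of Wnt3 on the other 3 arrays lay under 8.41.

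The other ligands differed by less. Wnt7a, the granule cell signal to mossy fibres, read 8.81 at E17.5, 8.57 at P1, 8.31 on the P5-labelled array and 8.53 on the P14-labelled array. Its values here are those of the pons, not of the granule cells that release it onto mossy fibres. Wnt7b, which acts with Wnt7a on the growth of brain vessels, read 8.11, 8.36, 8.26 and 8.37 in the same order. Wnt5a, a ligand of Ror2 and Ryk and a repellent for some axons, read 8.37, 7.78, 8.33 and 8.16. P1 was the lowest array for Wnt5a, 0.59 under E17.5, while the other 3 arrays lay within 0.21 of each other; all its values were under 8.41.

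Wnt1 and Wnt3a, known from the dorsal midline and rhombic lip of the early hindbrain, were low and flat. Wnt1 read 6.40 at E17.5 and P1, 6.27 on the P5-labelled array and 6.52 on the P14-labelled array; the first 3 of these lay under the lower quartile of their arrays, which was 6.42 to 6.53 over the 4 arrays. Wnt3a read 7.90, 8.10, 7.78 and 7.98. Wnt8b lay between 5.91 and 6.42, under the lower quartile of every array. Wnt2, with 6.82, 6.95, 7.19 and 7.33, was lowest at E17.5 and highest on the P14-labelled array. The remaining 10 ligands, Wnt2b, Wnt5b, Wnt6, Wnt8a, Wnt9a, Wnt10a, Wnt10b, Wnt11, Wnt16 and Wnt9b, had ranges of 0.09 to 0.38.

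The mouse Wnt genes include pairs of direct neighbours, and among the members there were 4 such pairs by gene order: Wnt6 with Wnt10a, Wnt3a with Wnt9a, Wnt9b with Wnt3, and Wnt10b with Wnt1. In the comparison of the P5-labelled array with P1, the pairs differed by −0.09 and 0.04, by −0.32 and 0.14, by 0.03 and 1.25, and by −0.30 and −0.13. Only for the pair of Wnt9b and Wnt3 did one gene reach 2-fold.

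Most ligands read slightly higher on the P14-labelled than on the P5-labelled array: 17 of 19 did (89.5%), against 53.8% of all genes and 64.8% of the genes whose mean was under 8.41. Of 19 ligands, 10 had their highest value on the P14-labelled array. Over all 42 members 16 were highest there (38.1%, against 21.0% of all genes). Most members have low signal, and among genes whose mean was under 8.41 the shares were 48.1% of 27 members and 31.1% of 10029 genes. The median difference of the ligands between the P14- and P5-labelled arrays was 0.20, against 0.04 over all genes, 0.11 over genes whose mean was under 8.41, and an SD between probe sets of 0.14.

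**Figure D2:**
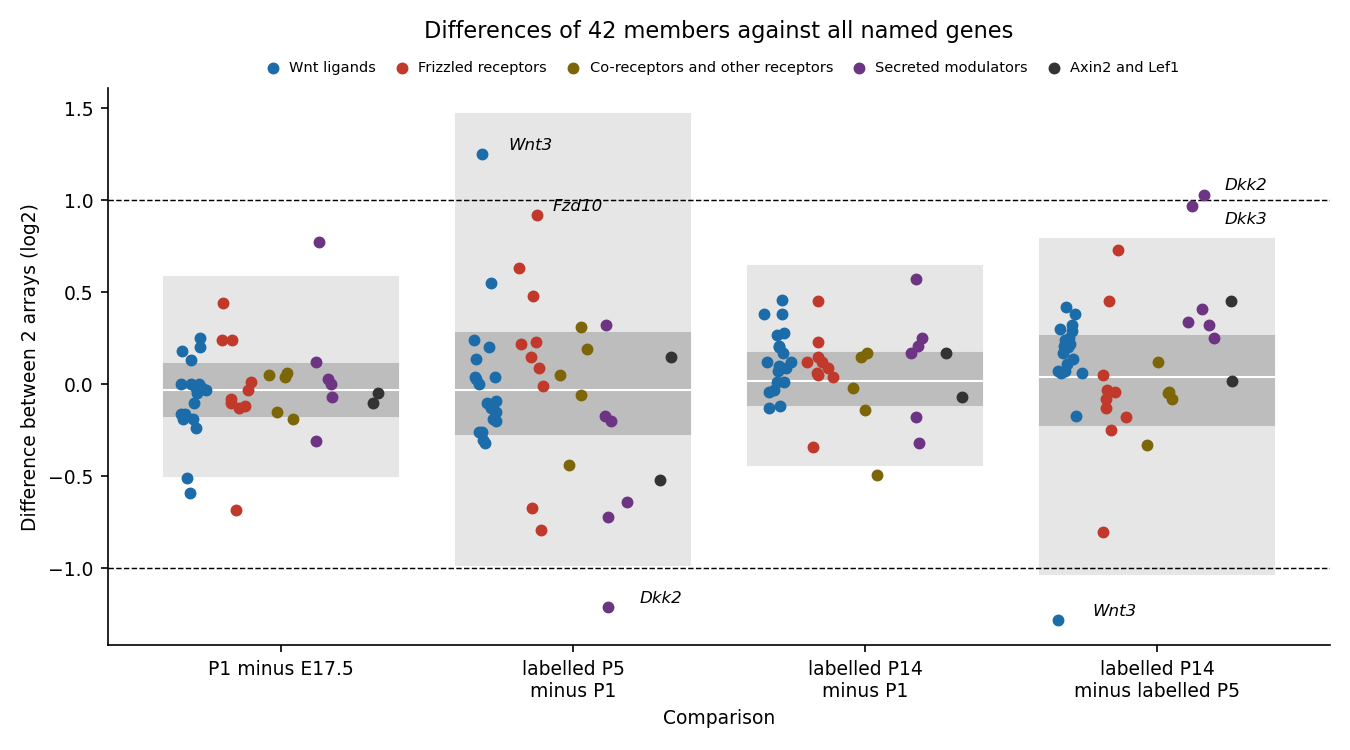
Each point is a member and each column a comparison of 2 arrays, with the difference on the log2 scale; light grey holds the central 95% and dark grey the central 50% of all 19938 genes, the white line is their median and the dashed lines mark 2-fold. Beyond 2-fold lie Wnt3 (1.25 and −1.28) and Dkk2 (−1.21 and 1.03), in the 2 comparisons that include the P5-labelled array.

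Among the Frizzled receptors, the seven-pass receptors for Wnts, the values of single genes went different ways. In 7 of 10 the highest value was on the P5-labelled array, against 31.2% of all genes and 38.3% of those whose mean reached 8.41. Several of these were near ties. In Fzd1, Fzd2, Fzd4 and Fzd5 the P14-labelled array differed from it by −0.08, −0.03, −0.13 and −0.04. These lie within the SD of 0.14 between probe sets. In Fzd6, Fzd8 and Fzd10 it differed by −0.18, −0.25 and −0.80. Fzd10 was the one member of this class with a 2-fold range: 7.83 at E17.5, 8.07 at P1, 8.99 on the P5-labelled array and 8.19 on the P14-labelled array. The P5-labelled array was 1.16 above E17.5 and 0.92 above P1, and was the only array over 8.41. Fzd6, a planar polarity receptor of skin and inner ear, read 8.34, 8.21, 8.84 and 8.66. Fzd8 read 8.40, 8.28, 8.76 and 8.51. Both were thus above P1 on the P5-labelled array, by 0.63 and 0.48, within 2-fold.

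Fzd3 went the other way. Fzd3, which mice need to lay down major axon tracts, read 11.26 at E17.5, 11.18 at P1, 10.39 on the P5-labelled array and 10.84 on the P14-labelled array. All values were far above 8.41, so the difference of −0.79 between the P5-labelled array and P1 is not touched by low signal. It is 1.73-fold and several times the SD of 0.18 between probe sets for this comparison. Fzd3 was lowest on the array on which 8 of 10 markers of immature neurons were at least 2-fold under P1 (none were higher). Of the 11 markers of pontine neurons, 3 were at least 2-fold under P1 there and 1 was higher, and against E17.5 these counts were 7 and 1. The part of either kind of cell in the Fzd3 value was not tested.

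Fzd9 and Fzd7 had patterns of their own. Fzd9 read 8.52, 8.96, 8.29 and 9.02, so P1 and the P14-labelled array were high and the other arrays low. Fzd7 read 8.47 at E17.5 and 7.79, 7.78 and 7.83 on the later arrays, a difference of −0.68 at P1 that was about the same on every postnatal array. Of 9 neural progenitor markers, 5 were higher and 4 lower at P1 than at E17.5, and 0 were 2-fold lower. Their median difference from E17.5 was 0.02 at P1, −0.36 on the P5-labelled array and 0.03 on the P14-labelled array. The part of progenitors in the Fzd7 value was not tested. Fzd1 (8.90 to 9.13), Fzd2 (8.89 to 9.05) and Fzd5 (7.50 to 7.59) were flat, with ranges of 0.23, 0.16 and 0.09. Fzd4, the receptor for Norrin on vessels of the retina and cerebellum, read 7.61, 7.85, 8.07 and 7.94.

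None of the 5 co-receptors and other receptors reached 2-fold. Ryk, an axonal Wnt receptor that mediates repulsion by Wnt5a, read 10.84 at E17.5, 10.65 at P1, 10.21 on the P5-labelled array and 10.16 on the P14-labelled array. The P5- and P14-labelled arrays were both under P1, by −0.44 and −0.49. Lrp6, the co-receptor of the beta-catenin route, read 10.10, 9.95, 9.89 and 9.81, and its partner Lrp5 read 8.37, 8.43, 8.62 and 8.58. Lrp6 was thus highest at E17.5 and Lrp5 lowest at E17.5, each within a range of 0.29. Ror1 read 8.12, 8.17, 8.48 and 8.15, and Ror2, a receptor for Wnt5a, read 7.85, 7.89, 7.94 and 8.06.

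Secreted modulators held 2 of the 4 members that reached 2-fold, both of the Dickkopf family. That is 33.3% of 6 genes, against 12.2% of all genes, and a share of so few genes is coarse. Dkk2, which binds Lrp5 and Lrp6, read 9.16 at E17.5, 9.19 at P1, 7.98 on the P5-labelled array and 9.01 on the P14-labelled array. It was level within 0.18 on 3 arrays and 1.21 lower on the P5-labelled array, where it lay under 8.41. Dkk3, a divergent Dickkopf that does not act as a typical Lrp inhibitor, read 7.91, 8.68, 7.96 and 8.93. For Dkk3 the E17.5 array and the P5-labelled array were low and the other arrays high; the widest gap, 1.02, lay between E17.5 and the P14-labelled array. Dkk1, an Lrp6 inhibitor, read 7.60, 7.29, 7.12 and 7.46, all under 8.41.

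The secreted Frizzled-related proteins bind Wnts outside the cell. Sfrp1 read 10.32 at E17.5, 10.25 at P1, 9.61 on the P5-labelled array and 9.93 on the P14-labelled array, with the P5-labelled array lowest. Sfrp2 read 8.46, 8.46, 8.78 and 9.03, with the P14-labelled array highest, 0.57 above P1. Of 10 markers of mural and meningeal cells, 4 were at least 2-fold above P1 on that array and 3 on the P5-labelled array. Between these 2 arrays the markers were split, with 5 highest on each and a median difference of 0.02. The lowest of the 10 markers read 6.37 on the P14-labelled array and 5.48 at P1. The part of these cells in the Sfrp2 value was not tested. Wif1, another Wnt-binding inhibitor, read 7.11, 7.23, 7.03 and 7.44, all under 8.41.

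Neither Axin2 nor Lef1 differed by 2-fold. Axin2, which limits beta-catenin and is itself switched on by it, read 9.29, 9.24, 8.72 and 9.17, so the P5-labelled array was 0.52 under P1. Lef1, a partner of beta-catenin on DNA, read 8.13, 8.03, 8.18 and 8.20. The low array of Axin2 was the same as that of Dkk2, Fzd3 and Sfrp1.

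**Figure D3:**
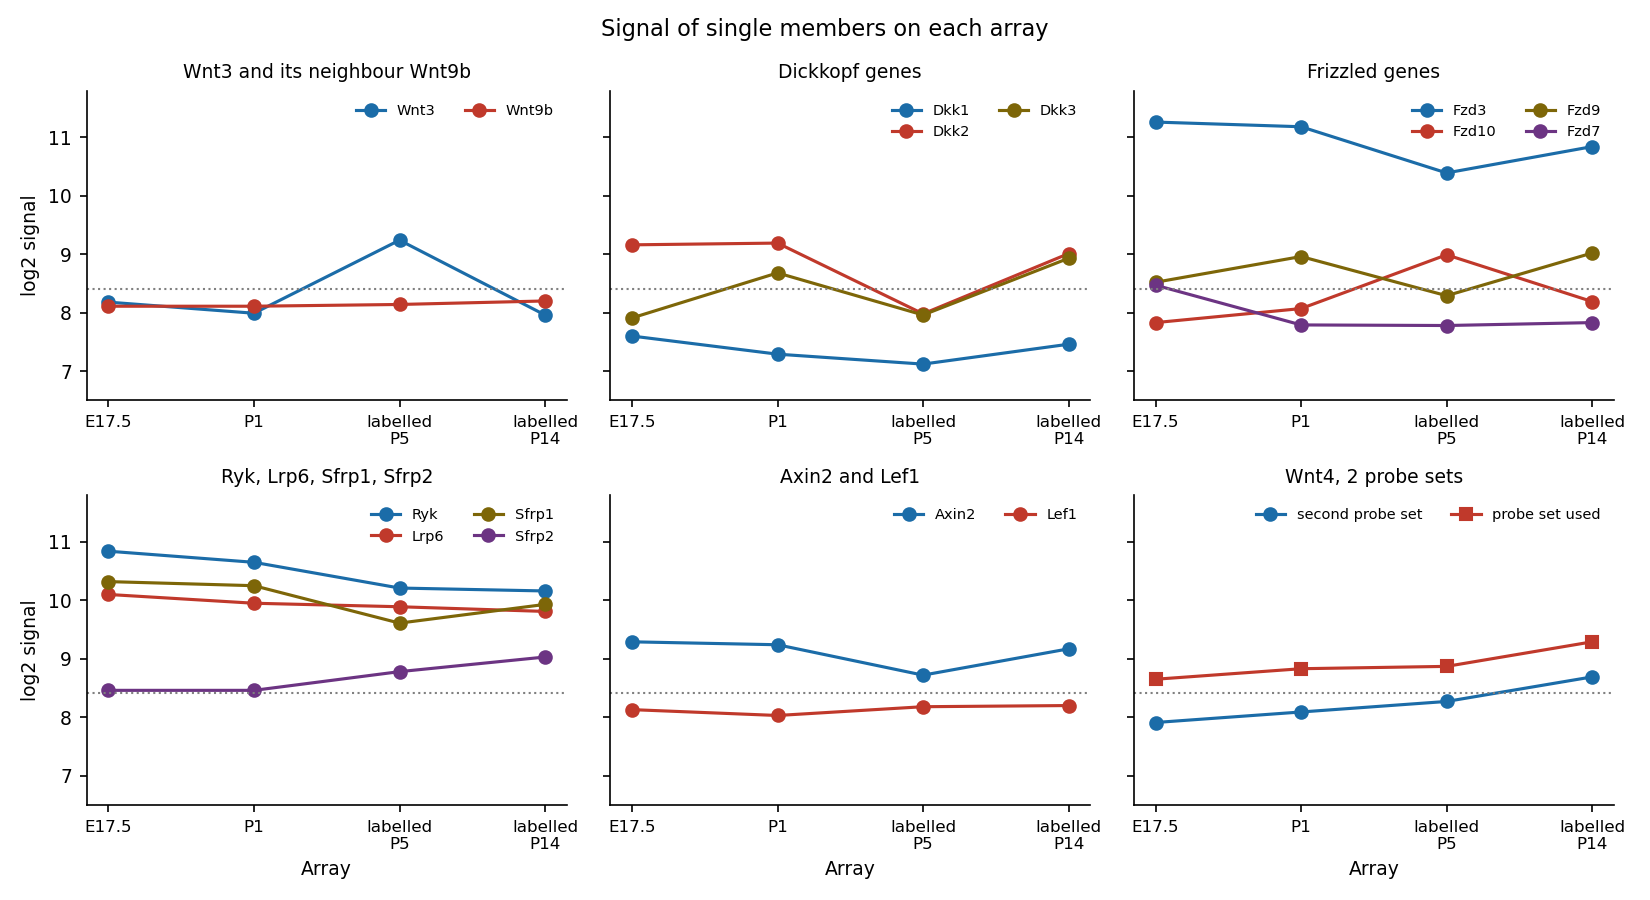
Log2 signal on the 4 arrays for selected members, among them those with a 2-fold range, for Axin2 and Lef1, and for both probe sets of Wnt4. Some plotted members, such as Wnt9b, Lrp6 and Dkk1, had narrow ranges, and Fzd6 and Wnt5a are not shown. The dotted line is 8.41. Wnt3 and Fzd10 peak on the P5-labelled array, while Dkk2, Fzd3, Sfrp1 and Axin2 are lower there than at P1.

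The P5-labelled array carried all the 2-fold differences among neighbouring labels. Against P1, 1 of 42 members was at least 2-fold higher, Wnt3, and 1 was at least 2-fold lower, Dkk2. All named genes gave 5.52% higher and 2.43% lower, and each of these single members is 2.38% of the 42. The median difference was 0.00 over the members and −0.03 over all genes. On this array all 11 myelin markers, 5 of 11 astrocyte markers and 5 of 8 markers of oligodendrocyte precursors were at least 2-fold above P1, beside the 8 of 10 immature neuron markers and 3 of 11 pontine neuron markers (Nfib, Meis2 and Pax6) that were lower. Their part in the values of Wnt3, Fzd10, Dkk2 and Sfrp1 was not tested. Against E17.5, Fzd10 and Wnt3 were at least 2-fold higher (2 of 42, against 7.04% of all genes) and Dkk2 lower (1 of 42, against 3.37%). The comparisons with the P5-labelled array share that array.

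The P14-labelled array was close to P1 for these genes. Between them 0 of 42 members were at least 2-fold higher and 0 were lower, against 0.823% and 0.0853% of all genes. The widest differences were those of Sfrp2 (0.57) and Ryk (−0.49). Against the P5-labelled array, the P14-labelled array had 1 member at least 2-fold higher, Dkk2 (1.03), and 1 lower, Wnt3 (−1.28), against 1.3% and 2.75% of all genes. Dkk3 came close, at 0.97. Against E17.5, Dkk3 was the 1 member at least 2-fold higher (2.73% of all genes) and none was lower (0.742%).

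In most genes that set the P5-labelled array apart, the P14-labelled array lay between it and P1. Among the 10 members with at least 0.5 between P1 and the P5-labelled array, this held for 7 (70.0%), against 86.8% of 5308 genes. The exceptions were Wnt3, whose value on the P14-labelled array (7.96) was at that of P1 (7.99), and Dkk3 and Fzd9, which were above P1 on the P14-labelled array and below it on the P5-labelled array.

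Wider differences were more common on the lists of other pathway genes. These lists were chosen with earlier results of these data known, so their shares describe the lists and not the pathway at large. Of 107 other Wnt pathway genes on 8 lists, 26 had a range of at least 1 over the 4 arrays (24.3%, against 9.52% of the members and 12.2% of all genes). More of them had high signal: the mean reached 8.41 in 77 of 107, against 15 of 42 members. Among genes with a mean of at least 8.41, a range of at least 1 was found in 20 of 77 other pathway genes (26.0%), 1 of 15 members (6.67%) and 17.3% of 9909 named genes. Among genes with a mean under 8.41 it was found in 6 of 30 (20.0%), 3 of 27 members (11.1%) and 7.24% of 10029 named genes.

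Secreted modulators outside the chosen set included the widest ranges. Sostdc1, which binds Lrp6 and also inhibits BMPs, read 10.00 at E17.5, 10.66 at P1, 7.83 on the P5-labelled array and 9.54 on the P14-labelled array. Draxin, an axon guidance protein that also binds Lrp6, read 10.88, 10.22, 7.76 and 9.60. Both were lowest on the P5-labelled array, by −2.83 and −2.46 against P1. Dkkl1, a relative of Dkk3, read 7.52, 8.57, 7.62 and 9.42, low and high on the same arrays as Dkk3. Cthrc1, a secreted protein that favours the Ror2 route, read 7.66, 8.02, 9.60 and 8.68. The list these genes come from holds 15 genes, not all secreted, since it includes proteins of the cell surface such as Apcdd1. Of the 15 genes, 6 had a range of at least 1 (40.0%, against 12.2% of all genes). Among the members, 2 of the 6 secreted modulators did, but the 2 sets are not of the same make-up.

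R-spondins strengthen Wnt signals by binding Lgr receptors and removing the ubiquitin ligases Rnf43 and Znrf3 from the cell surface. Rspo2 read 7.05 at E17.5, 8.55 at P1, 8.41 on the P5-labelled array and 9.23 on the P14-labelled array. It was one of the 2 pathway genes at least 2-fold higher at P1 than at E17.5, with Dkkl1. Rspo4 read 7.42, 7.55, 8.88 and 8.76, high on both later arrays. The receptors Lgr4 (10.11 to 10.91) and Lgr5 (8.98 to 9.22) and the ligase Znrf3 (9.08 to 9.21) stayed within 2-fold.

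In the release of Wnts, Wls, the carrier that brings them to the cell surface, read 8.93, 9.26, 9.95 and 9.58, and Porcn, which attaches their lipid, read 10.95, 10.84, 11.39 and 10.75. Wls was highest on the P5-labelled array, 1.02 above E17.5. Ndp, which encodes Norrin, a ligand of Fzd4 that is no Wnt, read 7.18, 7.17, 8.46 and 7.56, with 1.29 between the P5-labelled array and P1. Gpc3, a proteoglycan of the cell surface, read 7.68, 7.48, 8.30 and 8.62. All 10 mural and meningeal markers were above P1 on both the P5- and the P14-labelled array, with 5 highest on each. The part of these cells in the Gpc3 value was not tested.

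Inside the cell, 4 of 30 genes had a range of at least 1 (13.3%, against 12.2% of all genes). Ctnnb1, beta-catenin itself, read 11.93, 11.94, 12.04 and 11.97, and Gsk3b, the kinase that marks it for destruction, read 12.21, 12.14, 11.93 and 12.14. Axin1, the scaffold of the destruction complex, read 9.70, 9.42, 9.09 and 9.05, a range of 0.65, and the kinase Csnk1e read 12.79, 12.65, 12.03 and 12.41, a range of 0.76. Of the 30 genes, 3 were at least 2-fold under P1 on the P5-labelled array (10.0%, against 2.43% of all genes), which were Apc2 (−1.18), Amer3 (−1.07) and Nkd2 (−1.29), and 0 were higher (against 5.52%). In the nucleus, Tcf7l2, a TCF factor also known from maturing oligodendrocytes, read 8.74, 9.10, 10.52 and 9.68, and the coactivator Bcl9 read 11.70, 11.39, 10.39 and 11.06 and its relative Bcl9l 10.87, 10.69, 9.59 and 10.43. The corepressor Tle1 read 10.30 at E17.5 and 8.54, 8.68 and 8.17 afterwards, the only pathway gene at least 2-fold lower at P1 than at E17.5. The arrays on which Tcf7l2 was high were those with high myelin markers, whose part was not tested.

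Planar polarity genes split. Celsr3, an atypical cadherin that works with Fzd3 in axon guidance, read 10.99, 11.02, 9.82 and 10.65, and Vangl2, a core polarity protein, read 11.17, 10.80, 9.91 and 10.33. Both were lowest on the P5-labelled array, as Fzd3 was, by −1.20 and −0.89 against P1. Prickle1 read 8.23, 8.25, 9.69 and 8.52 and the formin Daam2 read 7.75, 8.56, 9.56 and 8.71, both highest on the P5-labelled array. Of the 16 genes on this list, 3 were at least 2-fold above P1 on the P5-labelled array (Prickle1, the kinase Mapk9 and Daam2) and 1 was lower, which is 18.8% and 6.25%, against 5.52% and 2.43% of all genes.

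Of 14 genes listed as feedback or other targets of beta-catenin, Axin2 aside, 1 had a range of at least 1 (7.14%, against 12.2% of all genes) and 8 had a range under 0.5 (57.1%, against 59.6%). The one with a range of at least 1 was Myc, which also answers to many other signals, at 11.07, 11.34, 10.09 and 11.08. Nkd1 read 9.57, 9.69, 10.35 and 9.65, and Apcdd1, an inhibitor at the cell surface, read 10.38, 10.86, 10.90 and 11.07. Slc2a1, a glucose transporter that was also listed as a marker of endothelium, had a range of 0.93, and Tnfrsf19 one of 0.83. Axin2 was lowest on the array on which Nkd1 was highest. Notum, Sp5 and Dkk4 stayed between 6.70 and 7.53 on all arrays, under 8.41.

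**Figure D4:**
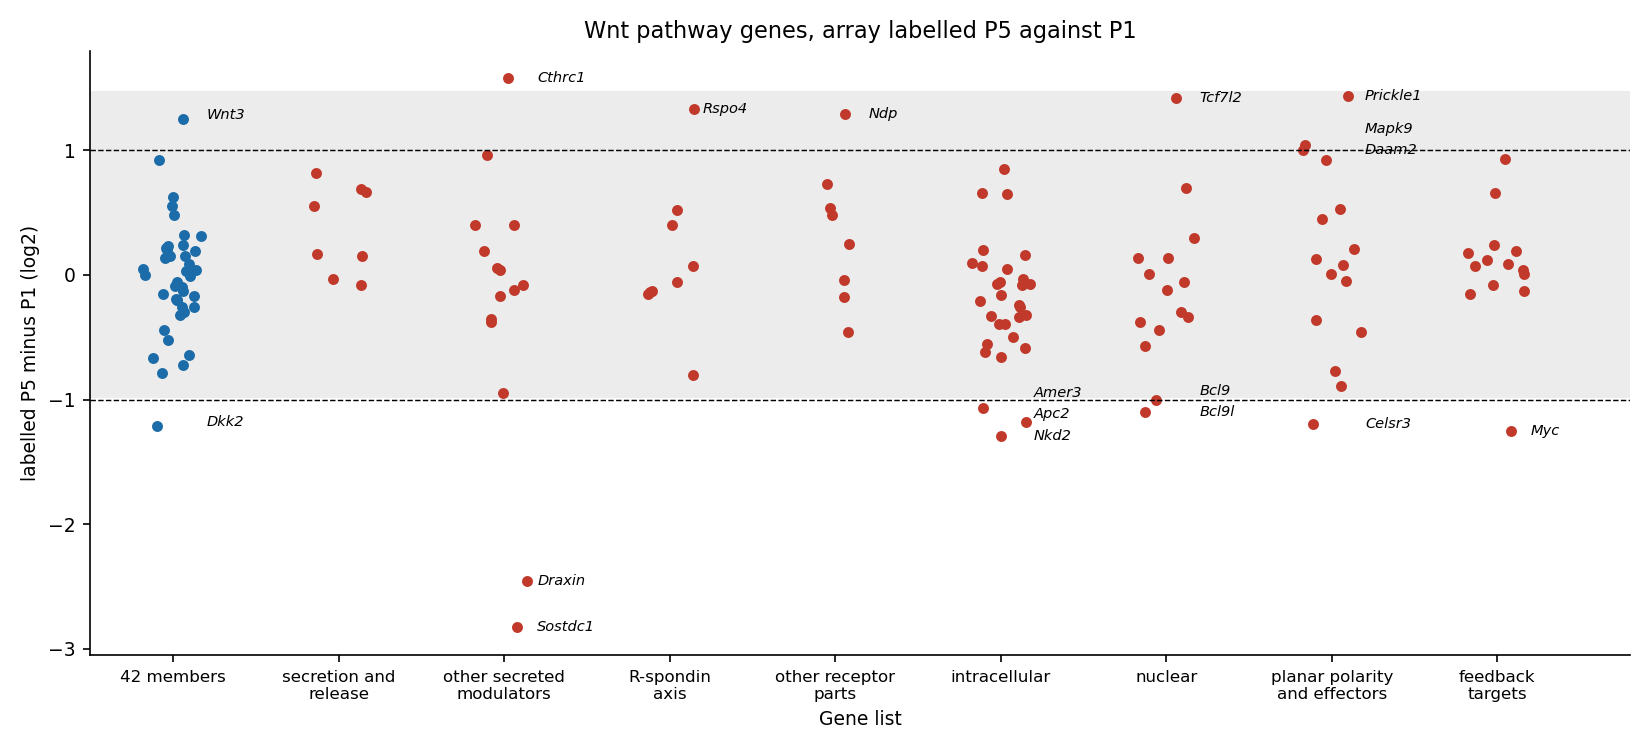
Difference between the P5-labelled array and P1 on the log2 scale for the 42 members (blue) and the other pathway lists (red), 1 point per gene; grey holds the central 95% of all named genes and the dashed lines mark 2-fold. Draxin (−2.46) and Sostdc1 (−2.83) lie furthest out, below every member. The list marked as other secreted modulators also holds proteins of the cell surface, such as Apcdd1.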

How the data were processed

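Total RNA from 1 pool of pontine nuclei per age was measured on 1 array per age, 4 arrays from 68 mice. The authors deposited 1 log2 signal per probe set and array; the submitters' processing notes name Affymetrix Expression Console, with no version, summary method or normalisation. Values ran from 1.84 to 14.72, which is the basis for calling them log2. Array medians were 7.89 to 7.94. Of 35556 probe sets, 21789 carried 1 symbol in the platform's gene table, 1621 carried several (none of them with a member) and 12146 were not listed; all 42 member identifiers were found in RefSeq's gene table. A gene with several probe sets was read from the one with the highest mean. Differences of at least 1 on the log2 scale were counted, over all named genes. No test was possible, and the number of arrays limits precision. Members and gene lists were chosen with earlier results of these data known. Every member was named. From each other list, genes with a difference of at least 1 in any of 4 comparisons were named, up to 3 in each direction. The 4 were P1 with E17.5, each later array with P1, and the later arrays with each other. Core genes chosen after their values were seen were added. Some genes that reached 1 only against E17.5 were left out, such as Sfrp4 (−1.12), Sfrp5 (1.02) and Camk2a (1.24) on the P5-labelled array. The counts were tested on simulated data. Python 3.11.15, pandas 2.3.3, numpy 2.4.6 and matplotlib 3.10.9 were used.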

Additional observations from a re-analysis of the deposited data

How the results depend on the processing

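Counts of members at least 2-fold apart and median differences were recomputed in 4 comparisons under 6 alternatives: 2 level filters, 2 rules for the probe set, quantile normalisation, and centring on the median gene. The 24 median differences moved from the values as deposited by less than the SD between probe sets, 0.10 to 0.18 over the 4 comparisons. That SD is for a single gene and is a loose measure for a median over 15 to 42 members. The 2 rules for the probe set could change only Wnt4, the one member with 2 probe sets. The median difference of the P14- against the P5-labelled array, 0.13 as deposited, was 0.01 over the 20 members with an array reaching 8.41 and 0.22 over the 15 whose mean did. That of the P14-labelled array against P1, 0.12 as deposited, ran from 0.05 to 0.13. Of 48 counts, 3 moved. With genes whose mean reached 8.41, the count higher on the P5-labelled array than at P1 was 0, and the count lower on the P14-labelled array than on the P5-labelled array was 0, because Wnt3 has a mean of 8.34. With centring, the count higher on the P14-labelled array than on the P5-labelled array was 0, because Dkk2 came to 0.99. At 1.5-fold, a threshold chosen after seeing the data, 1 member was higher and 2 lower at P1 than at E17.5 (2.43% and 1.42% of all genes), 3 higher and 5 lower on the P5-labelled array than at P1 (12.8% and 8.15%), 0 and 0 on the P14-labelled array against P1 (3.1% and 0.863%), and 3 higher and 2 lower on the P14-labelled array than on the P5-labelled array (5.72% and 8.08%). Of 27 single differences of at least 1.5-fold, checked after seeing the data, none changed sign under the other probe set rules or scalings, and none moved by more than the SD between probe sets. This outcome was largely fixed in advance. The probe set rules could change only Wnt4, and centring moved all members of a comparison by the same small amount. No paired analysis was possible because each age had 1 array. Signal under 8.41 limits 22 of 42 members on every array.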
